A study of Mus musculus with 20 samples.

Results

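The cofactors of chondrogenesis described here are 10 genes whose proteins have been reported to bind, assist or act alongside Sox9, the transcription factor that directs cartilage formation. They are Wwp2, Creb5, Nkx3-2, Arid5a, Arid5b, Trps1, Nfia, Nfib, Barx1 and Barx2. They were chosen by name, with earlier results of these data known. All 10 were matched by symbol among the 27911 genes of the table. RNA-seq of polyadenylated RNA was available from clonal lines of ATDC5, a mouse cell line derived from a teratocarcinoma that forms cartilage-like cells in culture. The groups were 2 Kmt2d-/- clones at day 7, 3 Kmt2d+/+ clones at day 7, the same 2 Kmt2d-/- clones at day 0 and the same 3 Kmt2d+/+ clones at day 0. Kmt2d-/- clones lacked the catalytic SET domain of the histone methyltransferase Kmt2d on both alleles, and Kmt2d+/+ clones kept it. Day 0 cells were undifferentiated, and day 7 cells had been kept for 7 days in chondrogenic medium with insulin, transferrin, selenium, ascorbic acid and beta-glycerophosphate.

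Each clone is a separate line and was treated as a replicate within its group. The main fit had no clone term, so it took the 2 days of a clone as separate although they are paired. Its p-values therefore measure the spread between clones within a group, pooled over the groups, and do not use the pairing. The 10 libraries held 35792709 to 66237183 counts. Mitochondrial genes took 1.98% to 2.93% of them. Kmt2d itself was at 174.8 and 113.3 CPM (counts scaled to library size) in Kmt2d-/- clones at day 7, against 186.7, 173.3 and 207.0 CPM in Kmt2d+/+ clones, and its difference did not pass the test (log2 fold change -0.39, adjusted p = 0.363). A count over the whole gene does not measure the deleted part and so does not check the genotype. As a check of the cell type, all 15 chondrocyte markers reached at least 10 counts in some library. Their summed level was 27036 to 31386 CPM in Kmt2d-/- clones at day 7, 608.4 to 1264 CPM in Kmt2d+/+ clones at day 7, 1976 to 6175 CPM in Kmt2d-/- clones at day 0 and 54.0 to 416.6 CPM in Kmt2d+/+ clones at day 0. Col2a1 and Col11a1 weighed most in the day 7 sums. They averaged 22461 and 3501 CPM in Kmt2d-/- clones and 236.7 and 235.8 CPM in Kmt2d+/+ clones. In these bulk samples, fewer cells of a type and less RNA per cell cannot be told apart.

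As background, Sox9 binds enhancers of cartilage matrix genes together with Sox5 and Sox6 and works through proteins that connect it to Mediator, to histone-modifying enzymes and to the ubiquitin system. Wwp2 is a ubiquitin ligase of the HECT family, and in mouse and zebrafish it takes part in forming the facial skeleton as a partner of Sox9 and of the Mediator subunit Med25. Arid5a and Arid5b are DNA-binding cofactors of Sox9. Creb5 is a basic leucine zipper factor of the superficial zone of articular cartilage. Trps1 and Nkx3-2 are transcriptional repressors that act in the growth plate and in early chondrogenesis, in that order. Nfia and Nfib belong to the nuclear factor I family, and Barx1 and Barx2 are homeobox factors.

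Among the 10 genes, Wwp2 rose in Kmt2d-/- clones at day 7 and Creb5 fell in Kmt2d-/- clones at day 0. These were the only calls among the 7 cofactors kept by the low-count filter, in 5 comparisons, by edgeR's quasi-likelihood test with Benjamini-Hochberg adjustment over 15467 genes and a threshold of 0.05. That is 1 of 7 at day 7, against 1.87% of all genes, and 1 of 7 at day 0, against 2.15%. A single gene among 7 does not set the group apart from that background. Arid5b, Barx1 and Barx2 had too few counts to pass that filter and were left out of the test. Unless another tool is named, every adjusted p below comes from that test, and levels are CPM after TMM scaling with the SD over clones. That fit had no clone term. With a term for each clone, Nfia (adjusted p = 0.017) and Trps1 (0.0234) passed as higher at day 7 than at day 0 in Kmt2d+/+ clones. These were 2 of 7, against 18.0% of all genes.

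The locus of Wwp2 also carries a microRNA of cartilage, Mir140, and its mature 3p product is shown because it is encoded inside the gene that was called at day 7. Wwp2 (ENSMUSG00000031930) lies at chr8:107436365-107558595 on the plus strand of GRCm38. The hairpin at chr8:107551244-107551313 lies in intron 16 of a transcript with 24 exons, intron 15 of one with 23 exons and intron 7 of one with 15 exons (GENCODE vM21). It also overlaps an annotated Wwp2 transcript made of 1 exon. The sequence is from RefSeq (GRCm38.p6, chr8:107551288-107551308, plus strand), 5′ to 3′, with the seed, bases 2 to 8, in capitals.
mmu-miR-140-3p: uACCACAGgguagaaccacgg
The microRNA itself was not measured in these polyadenylated libraries. Counts were given per gene, so transcripts that span the hairpin and those that do not cannot be told apart.

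Wwp2 was at 410.4 and 307.7 CPM in Kmt2d-/- clones at day 7, against 108.3, 71.4 and 51.7 CPM in Kmt2d+/+ clones at day 7. Both Kmt2d-/- clones stood above every Kmt2d+/+ clone. The means were 359.1 ± 72.6 CPM in Kmt2d-/- clones (SD, n = 2) and 77.2 ± 28.7 CPM in Kmt2d+/+ clones (SD, n = 3), a 4.65-fold difference (log2 fold change 2.22, SE 0.34, adjusted p = 0.0235). At day 0 Wwp2 was at 214.7 and 151.8 CPM in Kmt2d-/- clones, against 70.3, 99.2 and 59.5 CPM in Kmt2d+/+ clones. The groups again did not overlap, and the estimate was 2.40-fold higher in Kmt2d-/- clones without passing the test (log2 fold change 1.26, SE 0.33, adjusted p = 0.0789). DESeq2 did call the day 0 difference (adjusted p = 0.0091), and the adjusted p ran up to 0.297 over 16 alternatives.

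The day 7 call of Wwp2 ended in most fits with a clone left out, while its size changed little. Its log2 fold change stayed between 1.99 and 2.54 when each clone was left out in turn. The adjusted p was 0.0467 without Kmt2d+/+ clone 2, and the call ended without Kmt2d+/+ clone 1 (0.0516), Kmt2d-/- clone 2 (0.0672), Kmt2d-/- clone 1 (0.132) or Kmt2d+/+ clone 3 (0.143). It also ended with only the groups compared in the fit (0.0656), and over 16 alternatives, of which 11 passed, the adjusted p ran from 1.5e-07 to 0.143. Genes within 10 Mb of Wwp2 differed little, with a median difference of 0.04 on the log2 scale at day 7. Other markers stood apart between the genotypes at day 7, and their part in the Wwp2 difference was not tested. The chondrocyte sums given above were higher in Kmt2d-/- clones. The sum of 7 tendon and fibroblast markers, of which 6 reached 10 counts in some library, was 169.9 to 362.3 CPM in Kmt2d-/- clones and 122.6 to 165.6 CPM in Kmt2d+/+ clones. That of 6 myofibroblast and smooth muscle markers was 777.1 to 1027 CPM in Kmt2d-/- clones and 2770 to 3515 CPM in Kmt2d+/+ clones. That of 5 immune markers, of which 2 reached 10 counts, was 0.692 to 2.16 CPM in Kmt2d-/- clones and 4.59 to 11.4 CPM in Kmt2d+/+ clones.

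Differences of Wwp2 between the days did not pass the test in either genotype. In Kmt2d-/- clones the day 7 level of Wwp2 stood above the day 0 level in both clones, by 0.93 and 1.02 on the log2 scale (estimate 0.97, SE 0.37, adjusted p = 0.263). In the 3 Kmt2d+/+ clones the difference of day 7 from day 0 was 0.62, -0.47 and -0.20, and the estimate was 0.02 (SE 0.30, adjusted p = 0.983). The difference between these day effects was 0.96 (SE 0.48, unadjusted p = 0.0762, adjusted p = 1.0), and did not pass either. With a term for each clone the day estimates were 0.98 in Kmt2d-/- clones (SE 0.26, adjusted p = 0.0835) and -0.02 in Kmt2d+/+ clones (SE 0.21, adjusted p = 0.955). Their difference in that fit was 1.00 (SE 0.33, unadjusted p = 0.0224, adjusted p = 0.533), and again none passed.

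**Figure D1:**
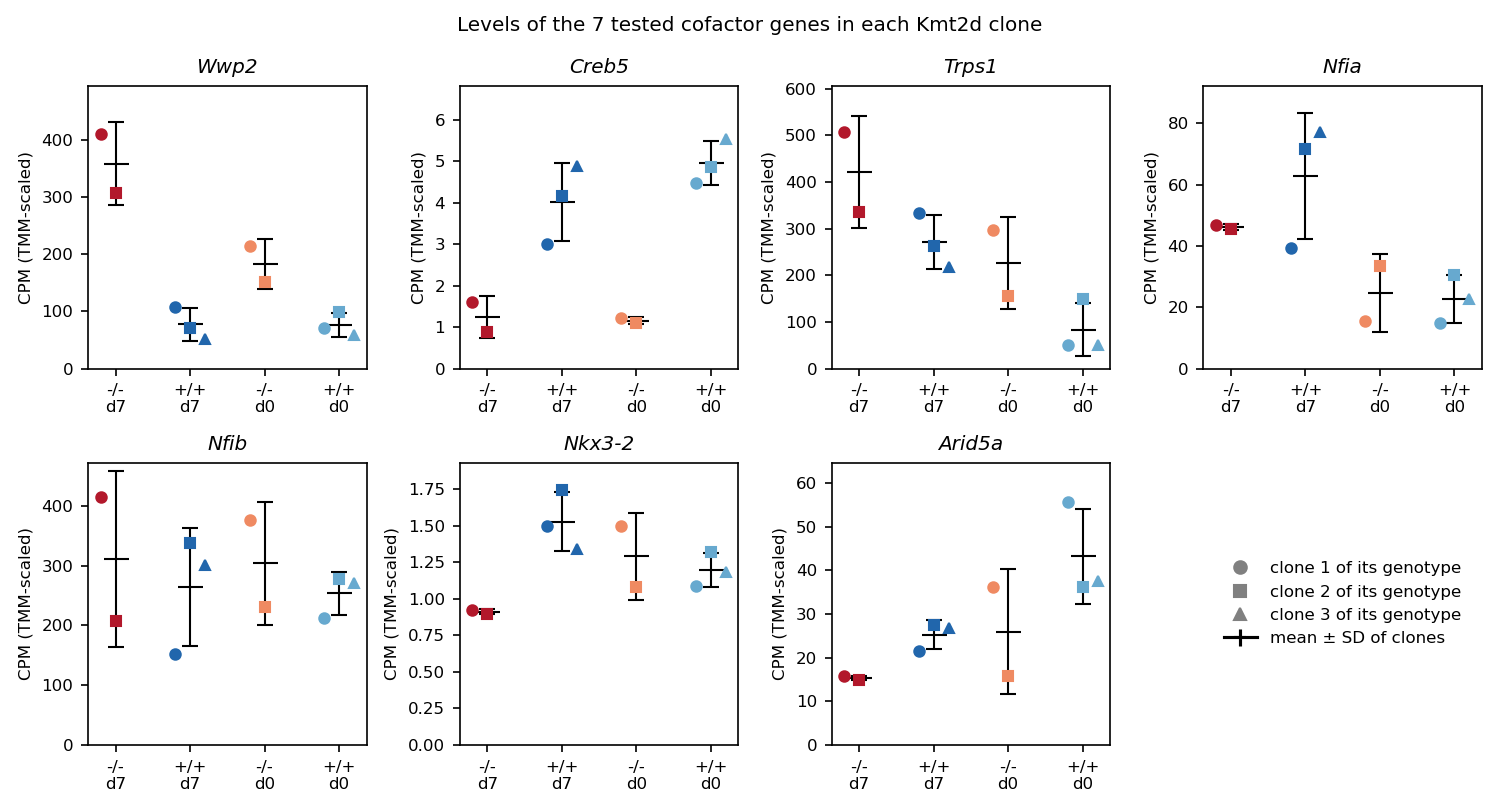
Level in CPM (vertical axes, starting at 0, scaled per gene) of the 7 tested cofactor genes, with 1 symbol per clone and the mean ± SD in black, for Kmt2d-/- (-/-) and Kmt2d+/+ (+/+) clones at day 7 (d7) and day 0 (d0). Wwp2 sits at 307.7 to 410.4 CPM in Kmt2d-/- clones at day 7, against 51.7 to 108.3 CPM in Kmt2d+/+ clones, and Creb5 lies below 2 CPM in all 4 Kmt2d-/- libraries.

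Creb5 moved in the opposite direction. It binds DNA as a leucine zipper protein and in articular cartilage is known for promoting Prg4, the lubricin gene. Creb5 (ENSMUSG00000053007) lies at chr6:53287270-53700376 on the plus strand and has 2 annotated starts in the RefSeq promoter table. The first is shown because it holds the motif of the family to which Creb5 belongs, the cAMP response element TGACGTCA (a palindrome, so both strands read alike), at base 206 of 300, counted from the 5′ end. The promoter of Wwp2 is set beside it, since these were the 2 genes called. Both run from 250 bases before the start to 50 after it, on the plus strand of GRCm38.p6, at chr8:107436120-107436419 for Wwp2 and chr6:53287053-53287352 for Creb5, with the motif in capitals.
Wwp2 promoter: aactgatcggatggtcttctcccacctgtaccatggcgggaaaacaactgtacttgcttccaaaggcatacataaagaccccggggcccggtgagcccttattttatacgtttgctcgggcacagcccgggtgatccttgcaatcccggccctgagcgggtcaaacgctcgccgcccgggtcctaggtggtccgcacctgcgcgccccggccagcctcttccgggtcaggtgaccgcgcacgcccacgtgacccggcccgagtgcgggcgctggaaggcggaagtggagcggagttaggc
Creb5 promoter, first start: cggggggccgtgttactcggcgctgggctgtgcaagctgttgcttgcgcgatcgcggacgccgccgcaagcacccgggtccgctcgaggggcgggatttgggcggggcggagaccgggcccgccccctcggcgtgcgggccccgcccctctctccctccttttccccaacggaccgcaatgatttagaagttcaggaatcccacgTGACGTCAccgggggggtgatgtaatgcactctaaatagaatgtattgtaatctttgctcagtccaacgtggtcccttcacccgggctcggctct
The promoters held 64.3% and 64.7% G and C, in that order, against a median of 52.7% over the 32851 promoters of the table. TGACGTCA occurred in 1.79% of all promoters and, among the 8 promoters of the 7 cofactors in the table, in the first of Creb5 alone. The second start of Creb5 held none of the motifs searched, nor did that of Wwp2. The others searched, on both strands, were AACAAT for the Sox family (10.7% of promoters), AGATAA for GATA-type factors (11.2%) and TTGGCA for nuclear factor I (14.1%). AGATAA occurred in the promoters of Nkx3-2 and Nfia, TTGGCA in that of Arid5b, and AACAAT in none of the 8. A match is a run of letters and not a measured site.

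At day 0 Creb5 was at 1.21 and 1.10 CPM in Kmt2d-/- clones, from 50 and 48 counts, against 4.47, 4.87 and 5.54 CPM in Kmt2d+/+ clones, from 156, 210 and 263 counts. All Kmt2d-/- values lay below all Kmt2d+/+ values. The means were 1.15 ± 0.0758 CPM in Kmt2d-/- clones (SD, n = 2) and 4.96 ± 0.543 CPM in Kmt2d+/+ clones (SD, n = 3), and the level fell 4.29-fold (log2 fold change -2.10, SE 0.39, adjusted p = 0.0356). At day 7 it was at 1.60 and 0.88 CPM in Kmt2d-/- clones, against 3.01, 4.16 and 4.88 CPM in Kmt2d+/+ clones. The groups did not overlap, but the 3.24-fold lower estimate missed the threshold (log2 fold change -1.70, SE 0.38, adjusted p = 0.0589). With the clone as a random block in limma-voom it passed (adjusted p = 0.0472), and so it did in limma-voom without the block (0.0405) and in DESeq2 (3.43e-04), while without Kmt2d+/+ clone 3 the adjusted p was 0.277.

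The day 0 call of Creb5 likewise ended in most fits with a clone left out. The log2 fold change ranged from -2.17 to -2.03 with each clone left out. The adjusted p was 0.044 without Kmt2d+/+ clone 2, and the call ended without Kmt2d-/- clone 1 (0.107), Kmt2d+/+ clone 1 (0.116), Kmt2d-/- clone 2 (0.132) or Kmt2d+/+ clone 3 (0.213). It also ended when only technical run 1 (0.0636) or run 2 (0.0597) of each library was used, and with only the groups compared in the fit (0.101). Over 15 alternatives, of which 8 passed, the adjusted p ran from 5.2e-06 to 0.213. Summed markers of several cell types stood apart between the genotypes at day 0, and their part in the Creb5 difference was not tested. The chondrocyte sums given above were higher in Kmt2d-/- clones. The sum of 7 osteoblast markers was 436.8 to 496.3 CPM in Kmt2d-/- clones and 328.0 to 342.7 CPM in Kmt2d+/+ clones. That of 6 joint surface and interzone markers was 42.1 to 43.6 CPM in Kmt2d-/- clones and 46.4 to 67.5 CPM in Kmt2d+/+ clones. That of 5 immune markers, of which 2 reached 10 counts in some library, was 0.504 to 0.701 CPM in Kmt2d-/- clones and 4.13 to 5.25 CPM in Kmt2d+/+ clones. The sums of 6 myofibroblast markers overlapped, at 1946 to 7205 CPM in Kmt2d-/- clones and 6723 to 9531 CPM in Kmt2d+/+ clones.

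For Creb5, neither genotype showed a difference of day 7 from day 0 past the test, with log2 estimates of 0.10 in Kmt2d-/- clones (adjusted p = 0.95) and -0.30 in Kmt2d+/+ clones (adjusted p = 0.603). Prg4 averaged 0.288 ± 0.189 CPM in Kmt2d-/- clones (SD, n = 2) and 0.447 ± 0.233 CPM in Kmt2d+/+ clones (SD, n = 3) at day 7, without a difference past the test (log2 fold change -0.63, SE 0.63, adjusted p = 0.643). At day 0, the day of the Creb5 call, Prg4 averaged 0.615 ± 0.156 CPM in Kmt2d-/- clones and 0.652 ± 0.221 CPM in Kmt2d+/+ clones. The log2 fold change there was -0.08 (SE 0.62, adjusted p = 0.956).

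**Figure D2:**
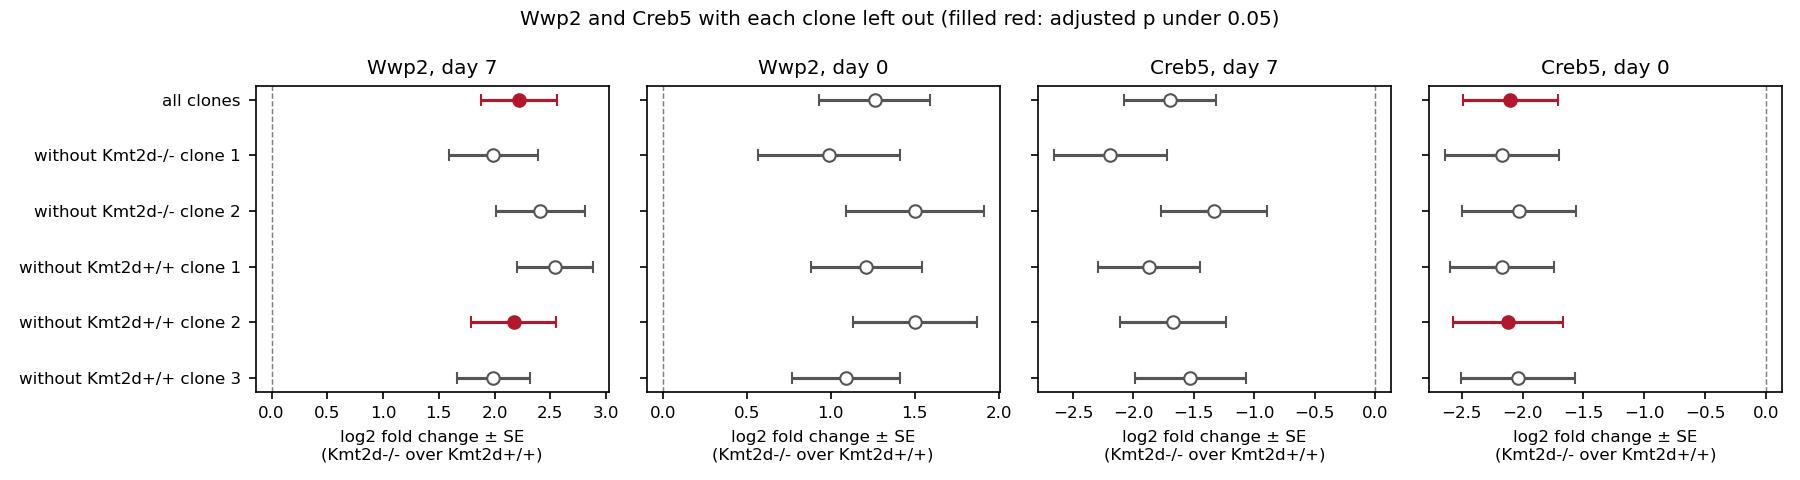
Log2 fold change of Kmt2d-/- over Kmt2d+/+ clones (horizontal axes, bars show the SE) for Wwp2 and Creb5 at day 7 and day 0, fitted with all clones and with each clone left out. Every estimate keeps its sign, while the adjusted p stays under 0.05 (filled red) with all clones and without Kmt2d+/+ clone 2 only, for Wwp2 at day 7 and Creb5 at day 0.

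The profiles most like those of the called genes were sought over the 10 libraries, as the smallest root mean square difference of mean-centred log2 CPM. For Wwp2 these were Slc26a2, a sulfate transporter of cartilage (0.34), Pcdhb10, a protocadherin (0.34), and Mzf1, a zinc finger factor (0.40). Slc26a2 averaged 83.1 ± 7.29 CPM in Kmt2d-/- clones (SD, n = 2) and 32.4 ± 6.94 CPM in Kmt2d+/+ clones (SD, n = 3) at day 7. For Creb5 they were Zfp345, a zinc finger gene (0.26), Prickle1, a planar cell polarity gene (0.30), and ENSMUSG00000075021, which has no symbol in the annotation used (0.30). Prickle1 averaged 3.30 ± 1.39 CPM in Kmt2d-/- clones (SD, n = 2) and 11.1 ± 1.96 CPM in Kmt2d+/+ clones (SD, n = 3) at day 0. Genes were taken for their likeness, so these values are a description.

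Of the pair of AT-rich interaction domain cofactors, Arid5a was measured and Arid5b was nearly absent from the counts. Arid5a (chr1:36307733-36324029, plus strand), which also binds messenger RNA, was at 15.7 and 15.0 CPM in Kmt2d-/- clones at day 7, against 21.5, 27.5 and 26.9 CPM in Kmt2d+/+ clones. At day 0 it was at 36.1 and 15.9 CPM in Kmt2d-/- clones, against 55.7, 36.3 and 37.6 CPM in Kmt2d+/+ clones. Kmt2d-/- clones lay below Kmt2d+/+ clones at both days, by log2 estimates of -0.72 (SE 0.34, adjusted p = 0.282) and -0.73 (SE 0.34, adjusted p = 0.268), which did not pass.

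Arid5a also had lower values at day 7 than at day 0 in each of the 5 clones. The log2 difference was -1.20 and -0.08 in the Kmt2d-/- clones (estimate -0.76, adjusted p = 0.39) and -1.37, -0.40 and -0.49 in the Kmt2d+/+ clones (estimate -0.77, SE 0.30, adjusted p = 0.155). Neither passed. Arid5b (chr10:68092520-68278740, minus strand), which recruits the histone demethylase Phf2 to cartilage genes, had 34 counts in all. It was listed at 0 in the 4 Kmt2d-/- libraries and in both libraries of Kmt2d+/+ clone 1. Kmt2d+/+ clone 2 had 10 counts at day 7 and 8 at day 0, and Kmt2d+/+ clone 3 had 16 counts at day 7 and was listed at 0 at day 0. An estimated count of 0 can also be a failed estimate, and no fold is given.

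The repressors differed from each other in level and pattern. Trps1 (chr15:50654752-50890463, minus strand), an atypical GATA factor that restrains chondrocyte growth and maturation, was at 507.0 and 336.6 CPM in Kmt2d-/- clones at day 7, against 332.7, 262.9 and 217.1 CPM in Kmt2d+/+ clones. At day 0 it was at 296.7 and 156.6 CPM in Kmt2d-/- clones, against 49.6, 148.6 and 50.7 CPM in Kmt2d+/+ clones. At day 0 Kmt2d-/- clone 2 lay just above Kmt2d+/+ clone 2, and the other Kmt2d+/+ clones stood well below both.

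The genotype differences of Trps1 did not pass the test, with log2 estimates of 0.64 at day 7 (SE 0.49, adjusted p = 0.527) and 1.45 at day 0 (SE 0.49, adjusted p = 0.146). At day 0 the estimate was 2.17 without Kmt2d+/+ clone 2 and then passed (adjusted p = 0.0291), as it did in DESeq2 with all clones (0.0383), with a range up to 0.497 over the alternatives. In Kmt2d+/+ clones Trps1 was 3.26-fold higher at day 7 than at day 0 and missed the threshold (log2 fold change 1.71, SE 0.46, adjusted p = 0.0638). With a term for each clone it rose by an estimated 1.89 on the log2 scale and passed (adjusted p = 0.0234). The clone differences were 2.74, 0.82 and 2.10, and without Kmt2d+/+ clone 2 the estimate of the fit with no clone term was 2.45 (adjusted p = 0.0244). Over 16 alternatives the adjusted p ran from 0.00226 to 0.357, and 5 passed. In Kmt2d-/- clones the day 7 level was above the day 0 level by 0.77 and 1.10 (estimate 0.90, SE 0.55, adjusted p = 0.526), and the difference between the day effects was -0.81 (SE 0.71, adjusted p = 1.0).

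Nkx3-2 (chr5:41761483-41764501, minus strand), a homeobox repressor that promotes early chondrogenesis downstream of hedgehog signals, was low throughout, with 38 to 118 counts per library. It was at 0.923 and 0.898 CPM in Kmt2d-/- clones at day 7, against 1.50, 1.74 and 1.34 CPM in Kmt2d+/+ clones. At day 0 it was at 1.50 and 1.08 CPM in Kmt2d-/- clones, against 1.09, 1.32 and 1.18 CPM in Kmt2d+/+ clones. The groups did not overlap at day 7 and did at day 0. Neither difference passed the test, with log2 estimates of -0.74 (SE 0.35, adjusted p = 0.285) and 0.10 (SE 0.35, adjusted p = 0.902).

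Of the nuclear factor I genes, Nfia had higher values at day 7 in every clone, and Nfib varied between clones with no common direction. Nfia (chr4:97772734-98118874, plus strand) was at 46.8 and 45.5 CPM in Kmt2d-/- clones at day 7 and at 15.6 and 33.6 CPM in the same clones at day 0. In Kmt2d+/+ clones it was at 39.2, 71.8 and 77.2 CPM at day 7 and at 14.7, 30.5 and 22.6 CPM at day 0. Within each genotype the days did not overlap, and the genotypes overlapped at both days. The day 7 level was 2.77-fold above day 0 in Kmt2d+/+ clones and missed the threshold (log2 fold change 1.47, SE 0.38, adjusted p = 0.0564). With a term for each clone Nfia rose by the same estimate of 1.47 and passed (adjusted p = 0.017). Over 16 alternatives the adjusted p ran from 0.00228 to 0.371, and 4 passed. In Kmt2d-/- clones the estimate was 0.91 (SE 0.45, adjusted p = 0.411), and the difference between the day effects was -0.56 (SE 0.58, adjusted p = 1.0).

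Nfib (chr4:82290173-82705750, minus strand), a relative of Nfia on the same chromosome, was at 414.9 and 207.4 CPM in Kmt2d-/- clones at day 7, against 151.5, 337.6 and 301.1 CPM in Kmt2d+/+ clones. At day 0 it was at 376.6 and 230.9 CPM in Kmt2d-/- clones, against 211.7, 277.9 and 270.2 CPM in Kmt2d+/+ clones. The 4 log2 estimates, 0.24 and 0.26 for genotype at day 7 and day 0 and 0.03 and 0.06 for day in Kmt2d-/- and Kmt2d+/+ clones, were each smaller than their SE of 0.35 to 0.43. Clone 1 of Kmt2d-/- had the highest values at both days, and clone 1 of Kmt2d+/+ the lowest.

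The homeobox genes Barx1 and Barx2 lay at or near the limit of the depth, at which 3 counts correspond to 0.0453 to 0.0838 CPM. Barx1, a factor of stomach and joint mesenchyme, had 1 count in all 10 libraries together. Barx2 (chr9:31846044-31913462, minus strand), which in mouse limb buds has been tied to the Col2a1 enhancer, had 7 and 25 counts in Kmt2d-/- clones at day 7, against 0, 2 and 0 counts in Kmt2d+/+ clones at day 7. It had 1 and 0 counts in Kmt2d-/- clones at day 0 and was listed at 0 in the 3 Kmt2d+/+ libraries of day 0. The summed counts per depth were 30.3 times as high in Kmt2d-/- as in Kmt2d+/+ clones at day 7 (95% interval 7.74 to 261.3) and 25.5 times as high as in Kmt2d-/- clones at day 0 (4.27 to 1040). These intervals cover counting error alone and not the spread between clones, and 25 of the 32 counts came from Kmt2d-/- clone 2. An edgeR fit with no low-count filter used the spread between clones, and neither Barx2 difference passed in it. The log2 estimates were 4.61 against Kmt2d+/+ clones at day 7 (SE 1.26, adjusted p = 0.123) and 4.42 against Kmt2d-/- clones at day 0 (SE 1.56, adjusted p = 0.3).

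Scaled by exon length, Wwp2, Trps1 and Nfib had the highest mean levels in every group, with overlap between the lowest of them and the next gene in Kmt2d+/+ clones at both days. In Kmt2d-/- clones at day 7 Wwp2 stood at 40.5 ± 8.18, Trps1 at 31.5 ± 9.01 and Nfib at 20.8 ± 9.81 CPM per kb (SD, n = 2), with neighbours in this order overlapping. In Kmt2d+/+ clones at day 7 the order was Trps1 at 20.2 ± 4.35, Nfib at 17.6 ± 6.59 and Wwp2 at 8.70 ± 3.24 CPM per kb (SD, n = 3), again with overlapping neighbours. In Kmt2d-/- clones at day 0 the same 3 genes stood at 16.9 to 20.7 CPM per kb and overlapped. In Kmt2d+/+ clones at day 0 Nfib led at 16.9 ± 2.42 CPM per kb (SD, n = 3), above every value of Wwp2 (8.61 ± 2.32) and Trps1 (6.20 ± 4.25). Nfia and Arid5a followed in every group at 1.22 to 5.76 CPM per kb. Creb5, whose annotated exons sum to 25.0 kb, was at 0.0461 to 0.198 CPM per kb. Sox9 itself stood at 107.6 ± 12.3 CPM per kb in Kmt2d-/- clones (SD, n = 2) and 35.5 ± 17.3 CPM per kb in Kmt2d+/+ clones (SD, n = 3) at day 7.

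**Figure D3:**
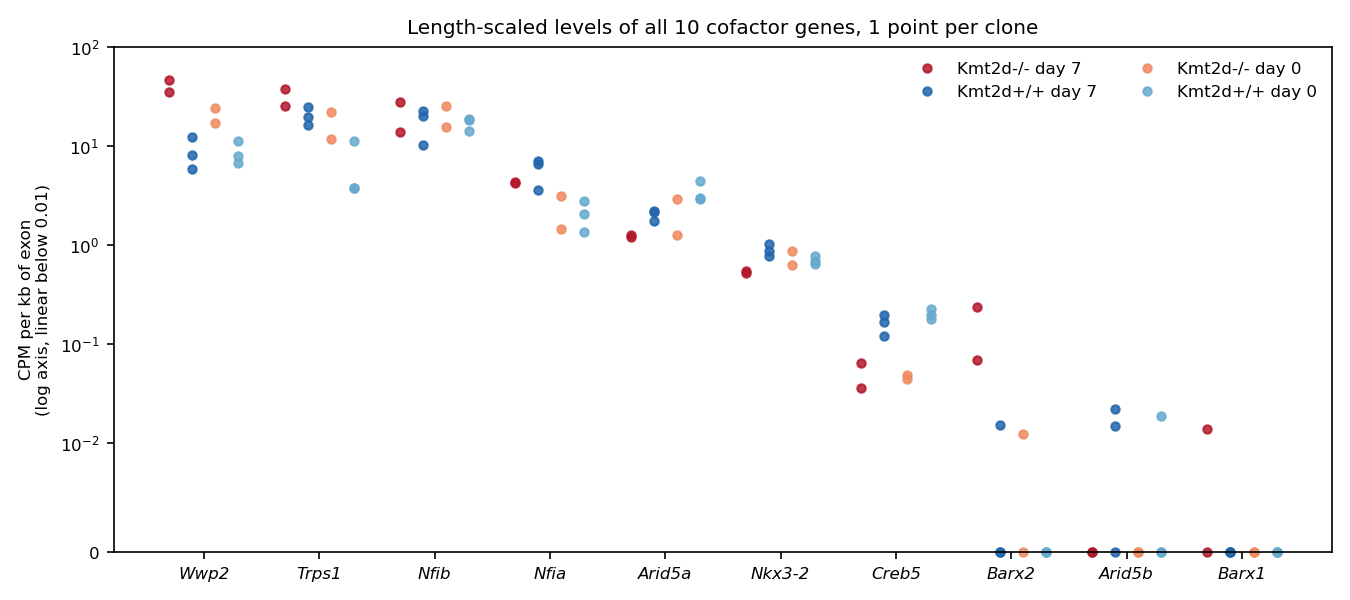
CPM per kb of exon (vertical axis, logarithmic above 0.01 and linear below it) of all 10 cofactor genes, with 1 point per clone and colours for the 4 groups. Wwp2, Trps1 and Nfib lie highest, Barx2 reaches 0.233 CPM per kb in Kmt2d-/- clones at day 7, and Arid5b and Barx1 lie at or near 0.

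Between genotypes, the number of the 7 tested cofactors called varied with the rule. At an unadjusted p under 0.05 there were 2 at day 7 against 19.9%, and 3 at day 0 against 20.2%. Limma-voom called 2 at day 7 against 3.45%, and 1 at day 0 against 1.72%. With the clone as a block in it the counts were 2 at day 7 (Wwp2 and Creb5, against 2.86% of all genes) and 1 at day 0 (Creb5, against 1.25%). DESeq2 called 2 at day 7 against 10.6% of all genes, and 3 at day 0 (Creb5, Trps1 and Wwp2) against 11.0%. The median log2 fold change of the 7 was -0.44 at day 7 and 0.12 at day 0, against -0.02 and 0.01 for all genes.

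Between day 7 and day 0, none of the 7 passed in edgeR in Kmt2d-/- clones, against 1.27% of all genes. At an unadjusted p under 0.05 there was 1 (Wwp2), against 14.8%, and DESeq2, limma-voom and the fit with clone terms each called 0, against 6.75%, 1.16% and 5.57% of all genes. In Kmt2d+/+ clones edgeR also called 0, against 5.08% of all genes, with 3 at an unadjusted p under 0.05 (Arid5a, Nfia and Trps1) against 24.7%. There DESeq2 called 2 (Nfia and Trps1) against 15.1%, limma-voom 1 (Trps1) against 5.08%, and the fit with clone terms 2 (Nfia and Trps1) against 18.0%. For the difference between the day effects, edgeR called 0 of the 7 against 0% of all genes. At an unadjusted p under 0.05 it was 0 against 3.67%, and DESeq2 (0.194% of all genes), limma-voom (0%) and the clone terms (0%) called 0 of the 7 as well. The comparisons share libraries, so their values are given side by side and not as independent results.

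**Figure D4:**
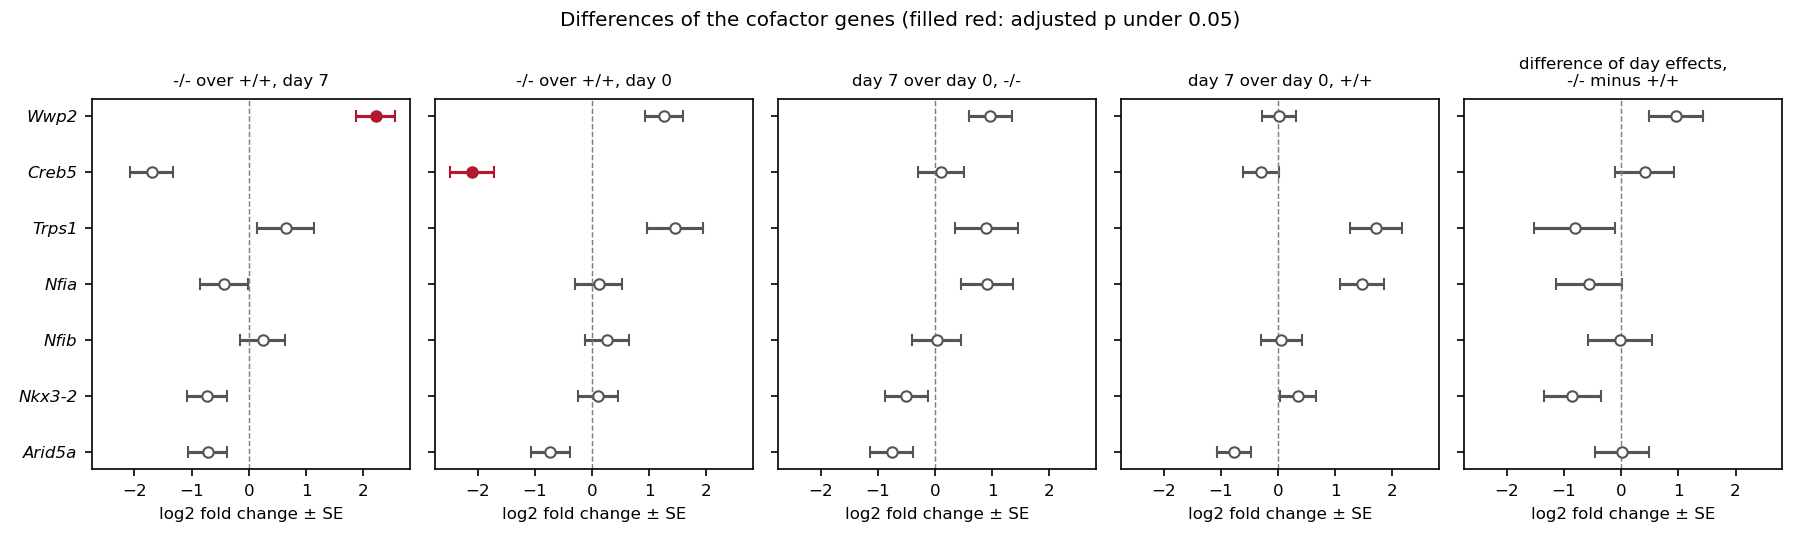
Log2 fold change ± SE (horizontal axes) of the 7 tested cofactor genes in the 5 comparisons, from the fit with no clone term. An adjusted p under 0.05 is in filled red. Wwp2 at day 7 (2.22) and Creb5 at day 0 (-2.10) are the filled points, and Nfib lies within 0.26 of 0 in every panel.

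The cofactors stand beside a wider set of cartilage genes. Calls in the lists below are to be read against the shares of all genes. The lists were chosen with earlier results of these data known. A number of calls above those shares is therefore a description and not an independent result. The order here is genotype at day 7, genotype at day 0, day in Kmt2d-/- and day in Kmt2d+/+ clones. In edgeR they were 1.87%, 2.15%, 1.27% and 5.08%, and 19.9%, 20.2%, 14.8% and 24.7% at an unadjusted p under 0.05. In DESeq2 they were 10.6%, 11.0%, 6.75% and 15.1%, and in limma-voom 3.45%, 1.72%, 1.16% and 5.08%. With the clone block or terms they were 2.86%, 1.25%, 5.57% and 18.0%. Sox9 averaged 445.0 ± 50.8 CPM in Kmt2d-/- clones (SD, n = 2) and 146.7 ± 71.4 CPM in Kmt2d+/+ clones (SD, n = 3) at day 7, and 165.1 ± 13.7 CPM in Kmt2d-/- clones and 41.4 ± 25.0 CPM in Kmt2d+/+ clones at day 0. Neither genotype difference passed (adjusted p = 0.118 and 0.0654), and in edgeR none of Sox5, Sox6 and Sox9 passed in any of the 5 comparisons. At an unadjusted p under 0.05 there were 3 of them at each day between genotypes, 2 between days in each genotype and 0 for the difference. DESeq2 called 2 at day 7 and 1 at day 0 between genotypes and 2 between days in Kmt2d+/+ clones, and there the clone terms called 2 and limma-voom 1. Of 19 cartilage genes known as Sox9 targets, 5 passed in edgeR as higher in Kmt2d-/- clones at day 7, among them Papss2, which supplies activated sulfate (60.1-fold, adjusted p = 0.00883), Fgfr3, a growth factor receptor (9.75-fold, 0.0235), Col2a1, the main cartilage collagen (94.9-fold, 0.0252) and Matn3, a matrilin (10.5-fold, 0.0346). At day 0 Papss2 (36.2-fold, adjusted p = 0.019) and Col2a1 (109.2-fold, 0.023) passed. Papss2 then averaged 9.53 ± 9.75 CPM in Kmt2d-/- clones and 0.258 ± 0.102 CPM in Kmt2d+/+ clones. Col2a1 averaged 1670 ± 1221 CPM in Kmt2d-/- clones and 15.3 ± 16.9 CPM in Kmt2d+/+ clones. With each clone left out the log2 fold changes ranged from 3.33 to 5.97 for Papss2 and from 5.72 to 8.18 for Col2a1. The size of these folds is uncertain. The numbers of the 19 that passed were 10 at day 7 and 1 at day 0 with the clone block, 12 and 3 in DESeq2, and 11 and 1 in limma-voom, in the same order. The median log2 fold change of the 19 was 3.29 at day 7, against -0.02 for all genes. Between day 7 and day 0, 4 of the 19 passed as higher in Kmt2d-/- clones and 7 in Kmt2d+/+ clones, in edgeR. The numbers were 9 in Kmt2d-/- and 8 in Kmt2d+/+ clones with clone terms, 14 and 13 in DESeq2, and 8 and 2 in limma-voom, in the same order. By smallest p the calls of edgeR were led by Matn1, a matrilin (362.1-fold, adjusted p = 0.0114), Matn3, Ucma and Comp in Kmt2d-/- clones and by Matn1 (59.2-fold, 0.00741), Col9a1, Ucma and Matn3 in Kmt2d+/+ clones. At day 0 Matn1 was near the limit of the depth, at 0.155 ± 0.0889 CPM in Kmt2d-/- and 0.121 ± 0.0902 CPM in Kmt2d+/+ clones. The size of its folds is therefore uncertain.

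Of 17 partners of these proteins, Med25, the Mediator subunit that Wwp2 binds, had a log2 difference of -0.02 at day 7 (SE 0.40, adjusted p = 0.989). Phf2, the partner of Arid5b, passed as 1.77-fold higher in Kmt2d-/- clones at day 7 (adjusted p = 0.0322) and 1.62-fold at day 0 (0.0433). Genes within 10 Mb of Phf2 on chromosome 13 were higher too, by a median of 0.28 and 0.27 on the log2 scale, and with that regional level taken into account the log2 estimates of Phf2 were 0.55, against 0.83 without it, and 0.42, against 0.69, and did not pass (0.0509 and 0.0826). Runx1, a transcription factor of early chondrogenesis, passed as 2.30-fold higher in Kmt2d-/- clones at day 0 (adjusted p = 0.0395) and fell at day 7 against day 0 in Kmt2d-/- clones, by 1.41 on the log2 scale (adjusted p = 0.0447). Genes within 10 Mb of Runx1 differed by a median of only 0.13 and 0.10. With that level taken into account the log2 estimates of Runx1 were 1.03, against 1.20 without it, and -1.48, against -1.41, and the adjusted p rose above the threshold (0.0953 and 0.0527). Runx2, which drives chondrocyte hypertrophy, rose 1.94-fold at day 7 over day 0 in Kmt2d+/+ clones (adjusted p = 0.0382). With the clone as a block, 2 of the 17 partners passed at day 7 and 0 at day 0 between genotypes, and with clone terms 3 passed between days in Kmt2d-/- clones and 5 in Kmt2d+/+ clones. Between genotypes DESeq2 called 2 at day 7 and 4 at day 0, and limma-voom 2 at each. Between days DESeq2 called 3 in Kmt2d-/- clones and 4 in Kmt2d+/+ clones, and limma-voom 2 and 1 in the same order.

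Of 18 signals that act upstream, 14 were tested and none passed in edgeR between genotypes at day 7 (1 at an unadjusted p under 0.05, and 0 in DESeq2, limma-voom and the clone block). Bmp4, the most abundant of them by the mean over the 4 groups, had a log2 difference of 0.05 at day 7 (SE 0.44, adjusted p = 0.969). At day 0 the growth factor gene Tgfb1 passed as 4.97-fold higher in Kmt2d-/- clones (adjusted p = 0.0433), and 0 signals passed with the clone block, 0 in limma-voom and 5 in DESeq2. Wnt5a, a noncanonical Wnt ligand, rose at day 7 over day 0 in both genotypes, 11.2-fold in Kmt2d-/- clones (adjusted p = 0.0317) and 13.2-fold in Kmt2d+/+ clones (0.00939). The hedgehog receptor Ptch1 (2.66-fold, adjusted p = 0.0258) and the parathyroid hormone receptor Pth1r (12.7-fold, 0.0376) also rose over time in Kmt2d+/+ clones. With clone terms 3 signals passed between days in Kmt2d-/- clones and 6 in Kmt2d+/+ clones. DESeq2 called 6 in each genotype, and limma-voom 1 in Kmt2d-/- clones and 3 in Kmt2d+/+ clones.

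Calls among close relatives of the cofactors stand beside 1.87% of all genes at day 7 and 2.15% at day 0 between genotypes in edgeR. Of 26 tested relatives, none passed in edgeR between genotypes at day 7 (4 at an unadjusted p under 0.05, 1 in DESeq2, 0 in limma-voom and with the block), where the most abundant, the ligase gene Nedd4, had a log2 difference of 0.18 (SE 0.19, adjusted p = 0.668). At day 0, 1 passed, Arid4a (2.25-fold higher in Kmt2d-/- clones, adjusted p = 0.0292). Genes within 10 Mb of Arid4a were higher by a median of 0.72, and with that level taken into account the log2 estimate was 0.45 (adjusted p = 0.192). Between days none passed in edgeR in Kmt2d-/- clones (0 at an unadjusted p under 0.05 and by each other tool) or in Kmt2d+/+ clones (1 at an unadjusted p under 0.05, 1 in DESeq2, 0 in limma-voom and 4 with clone terms). Over these lists there were 29 calls in all, and 21 of them also passed without Kmt2d+/+ clone 2, 10 without Kmt2d-/- clone 2, 9 without Kmt2d-/- clone 1, 3 without Kmt2d+/+ clone 1 and 0 without Kmt2d+/+ clone 3.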

How the data were processed

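The authors deposited 1 table of estimated counts per gene, not normalized, for 27911 genes in 20 columns, 2 technical replicates, here called runs, for each of 10 libraries. The submitters' processing notes name the build GRCm38 and the tools Salmon, DESeq2, edgeR and limma. Versions, annotation and strand setting were not given in the sources used here, so reads of a gene and of one that overlaps it on the other strand may be mixed. Runs are technical repeats (r = 0.989 to 0.992 across genes on the log2 scale) and were summed and rounded. Symbols and coordinates came from GENCODE vM21 (GRCm38), and 481 identifiers had no symbol.

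edgeR 4.0.16 (R 4.3.3) fitted a mean for each of 4 groups to all 10 libraries after filterByExpr and TMM scaling, with a quasi-likelihood F test, 6 residual degrees of freedom and a common biological coefficient of variation of 0.385. The fit was checked on simulated data. CPM per kb divides by the union of annotated exons. The ratio for Barx2 has an exact binomial 95% interval. Alternatives were DESeq2 1.42.0, limma-voom (limma 3.58.1), other scalings and filters, each run alone, only the groups compared, each clone left out, a regional offset (median level of genes within 10 Mb) and the clone as a block. The 2 days of a clone come from the same line and are paired. Their deviations from the group means correlated at 0.363 to 0.571. In the order of the numbers used here, the labels name the Kmt2d+/+ clones 10-5, 10-7 and 10-8 and the Kmt2d-/- clones 10-7 and 96-9. The name 10-7 occurs in both genotypes, was not taken as a pairing, and its meaning was not given in the labels. For the genotype comparisons the block was limma's duplicateCorrelation (0.49).

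All 10 cofactors were named in each comparison, with the passing genes of the context lists (up to 4 by smallest p, otherwise the most abundant gene) and the 3 nearest profiles of each called cofactor. Med25 and Prg4 were added for their roles, with their values known. The members and lists were chosen with earlier results of these data known.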

Additional observations from a re-analysis of the deposited data

Results flagged for a closer look

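Nkx3-2 was lower at day 7 than at day 0 in both Kmt2d-/- clones, by 0.68 and 0.25 on the log2 scale, and higher in all 3 Kmt2d+/+ clones, by 0.45, 0.39 and 0.17. The opposite directions in every clone drew attention to it. The difference between the day effects was -0.85 on the log2 scale (SE 0.49, unadjusted p = 0.12, adjusted p = 1.0 in edgeR), so it did not pass. It stayed between -1.05 and -0.61 with each clone left out. Since every clone had the direction of its genotype, leaving 1 out could not reverse the sign, and the kept sign adds no support. Nkx3-2 had 38 to 118 counts per library. How many of all genes show such a pattern was not counted.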

How the results depend on the processing

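Of 543 recomputed values of 35 cofactor results, 477 kept their direction and side of the threshold, 12 lost a call, 15 gained one and 39 changed sign, 0 of these with a call on either side. The cofactors called at day 7 numbered 1 with all clones, 2 in DESeq2, limma-voom and the replicate block by clone, 0 with only the groups compared, and 0 to 1 with a clone left out. At day 0 they numbered 1, 3 in DESeq2, 0 with a mean of at least 5 CPM, with run 1 or run 2 alone or with only the groups compared, and 0 to 2 with a clone left out. Between days in Kmt2d+/+ clones they numbered 0, 1 in limma-voom and at 5 CPM, 2 in DESeq2, with the regional offset and with the replicate block by clone, and 0 to 1 with a clone left out. In Kmt2d-/- clones and for the difference of the day effects the number was 0 throughout. The block changed no call of a cofactor other than those named in the results.

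Over all genes, the 290 calls at day 7 were 1605 in DESeq2, 533 in limma-voom, 442 with the block, 184 in run 2, 180 with the regional offset, 55 with only the groups compared and 10 to 272 with a clone left out. The 332 at day 0 were 1632, 266, 193, 229, 188, 9 and 10 to 912 in the same order. The 196 between days in Kmt2d-/- clones were 999 in DESeq2, 862 with clone terms, 310 with the offset, 131 in run 2, 0 with only the groups compared and 0 to 183 with a clone left out. The 786 in Kmt2d+/+ clones were 2280, 2789 and 1692 in DESeq2, with clone terms and with the offset, and 0 to 862 with a clone left out. For the difference of the day effects, DESeq2 called 27 genes and edgeR 0. The cause of these shifts was not tested.

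Changes of sign, all uncalled, were as follows in log2 units. Nkx3-2 between genotypes at day 0 was -0.02 in run 2 and -0.12 with the offset (clones left out, -0.15 to 0.33). Creb5 between days in Kmt2d-/- clones was -0.73 in run 2 and -0.03 with the offset (-0.33 to 0.40), and its difference of the day effects was -0.13 in run 2 (-0.02 to 0.70). Nfib between days in Kmt2d-/- clones was -0.01 in limma-voom and with clone terms and -0.05 in run 2 (-0.16 to 0.14). In Kmt2d+/+ clones it was -0.02 in limma-voom and -0.01 with clone terms (-0.09 to 0.22). Its difference of the day effects was 0.01 in limma-voom and with clone terms, 0.0 with no filter, 0.04 in run 1 and 0.07 with the offset (-0.22 to 0.13). With clones left out, Nfib ranged from -0.35 to 0.65 between genotypes at day 7 and from -0.13 to 0.58 at day 0. Wwp2 between days in Kmt2d+/+ clones was -0.02 in limma-voom and with clone terms and -0.07 in run 1 (-0.37 to 0.30). The difference of the day effects of Arid5a was -0.01 at 5 CPM, -0.31 in run 1 and -0.11 with the offset (-0.44 to 0.69). With clones left out, Nfia ranged from -0.53 to 0.57 between genotypes at day 0 and from -1.04 to 0.11 for the difference of the day effects. Depth limits Arid5b, Barx1 and Barx2, which the low-count filter removed, and Creb5 and Nkx3-2, which a mean of at least 5 CPM removes.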
